A study of Mus musculus with 4 samples.

Results

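Cadherins and protocadherins were followed in the RNA of laser-captured mouse spinal motor neurons. The members were every entry of the expression tables with the symbol Cdh and a number, or with a symbol starting with Pcdh. There were 58 such entries, with 57 symbols, among the 27189 entries of each table. They comprised 5 type I and 12 type II classical cadherins, 5 other cadherins, 23 clustered protocadherin entries (22 beta and 1 under the gamma symbol Pcdhgc5), and 13 protocadherins outside the clusters (4 delta1, 5 delta2 and 4 others). Cdh9 and Pcdhb22 had no entry under these symbols and were not analysed here.

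The 4 libraries came from 3-month-old mice transgenic for a human SOD1 genomic fragment with yellow fluorescent protein (YFP) joined to its coding end. SOD1 encodes a superoxide dismutase, and the G85R substitution is one of its inherited changes in amyotrophic lateral sclerosis. Wild-type SOD1-YFP animals (strain 592, 2 libraries) were compared with G85R SOD1-YFP animals (strain 737, 2 libraries), and each library held polyA RNA from 3000 to 4000 cell bodies of 1 animal. Both strains had a mixed C57BL/6J and SJL/J background and both carried a transgene, so the wild-type group was not free of human SOD1-YFP, and the strain and its transgene copy number changed together with the genotype. Large ventral horn cell bodies were picked by Azure B staining, and cell bodies with bright aggregates were not collected from G85R animals. Levels were given as RPKM, which scales the reads of a gene to the length of its transcripts and to the mapped reads of the library, so that genes may be compared per length.

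Cadherins are transmembrane proteins whose extracellular repeats bind calcium and join like cells to each other. Classical cadherins hold on to the actin cytoskeleton through beta-catenin and alpha-catenin, and the combination of type II cadherins on a motor neuron is known to sort it into its motor pool during development. Clustered protocadherins come from tandem arrays of exons in which each neuron chooses a few promoters, which gives the cell an identity that its own dendrites recognise and avoid. The non-clustered delta protocadherins are weaker adhesion molecules that act in axon growth and synapse formation, in part through the WAVE complex that drives actin branching.

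The libraries were similar in depth, with 21560318 to 25186594 reads on genes as estimated from the tables, and 1 read was worth a median of 0.0195 to 0.0226 RPKM. Motor neuron markers were high in all 4 libraries, with Slc18a3 (the vesicular acetylcholine transporter) at 309 to 477 RPKM and Chat (the acetylcholine-synthesising enzyme) at 49.6 to 81.2 RPKM. RNA of neighbouring cells was also present. The 6 oligodendrocyte markers found summed to 775 to 1002 RPKM, and the 7 astrocyte markers to 40.1 and 45.4 RPKM in wild-type libraries 1 and 2 and to 132 and 56.7 RPKM in G85R libraries 1 and 2. Much of the astrocyte difference was in Gfap alone, at 11.5 and 17.1 RPKM in wild-type and 91.9 and 28.4 RPKM in G85R. G85R library 1 was thus the highest for astrocyte markers, and also for the 8 microglial markers (35.7 against 16.0 to 18.5 RPKM in the other 3). The 8 endothelial and pericyte markers summed to 11.4 and 11.8 RPKM in wild-type and to 10.7 and 10.3 RPKM in G85R. The 5 markers of other spinal neurons summed to 186 and 191 RPKM in wild-type and to 217 and 200 RPKM in G85R. All 5 had a log2 fold change above 0, with none called. The 4 oligodendrocyte precursor markers summed to 16.4 to 23.8 RPKM and overlapped. Both differences that passed the test within these lists were in the 2 entries of Hbb-b1, a haemoglobin chain, which was higher in G85R, and the red blood cell markers summed to 2.31 and 2.72 RPKM in wild-type against 13.4 and 12.7 RPKM in G85R. The 4 meningeal and fibroblast markers summed to 14.2 and 11.6 RPKM in wild-type and to 3.78 and 6.27 RPKM in G85R, with no marker of any list at 0 in all libraries. Because these are bulk samples, fewer cells of a type and less RNA per cell cannot be told apart in any value given here.

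Most of the family was detected, and a small number of genes held most of its RNA. In all 4 libraries 53 of the 58 entries were above 0, while 3 were at 0 throughout. The 7 entries with a mean of at least 10 RPKM were the clustered entry Pcdhgc5, Pcdh9, Cdh22, Cdh13, Cdh18, Pcdh17 and Cdh2, and together they held 66.6 to 70.0% of the family's summed RPKM in each library. The remaining entries trailed off from below 10 RPKM to a few reads per library, as the plot of all levels by library shows.

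**Figure D1:**
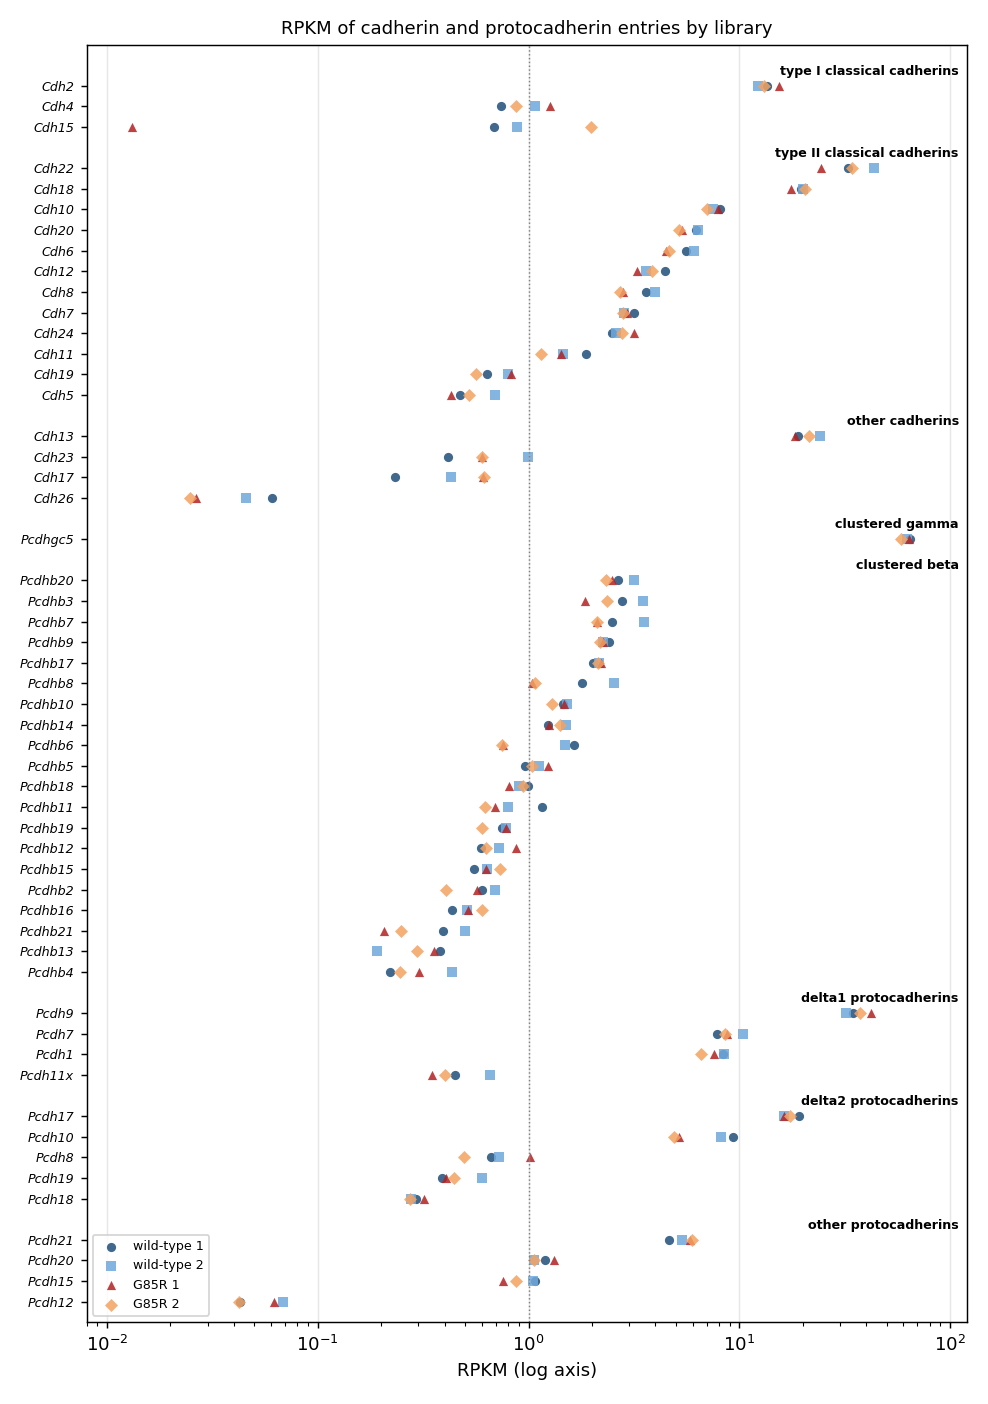
RPKM on a log axis of the 53 entries above 0 in all 4 libraries, grouped by subgroup, with 1 symbol per library and a dotted line at 1 RPKM. Most entries have 4 symbols close together, and Cdh15 stands out with 0.0132 RPKM in G85R library 1 against 1.98 RPKM in G85R library 2.

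The 3 most abundant subgroups kept their order in all 4 libraries, while the delta2, beta and other-cadherin sums changed places. Type II cadherins were the most abundant set, at 89.0 and 99.4 RPKM in wild-type and 74.7 and 85.8 RPKM in G85R, so that both G85R sums were below both wild-type sums. The Pcdhgc5 entry, which joined 41 transcripts, followed at 58.4 to 64.5 RPKM. The delta1 protocadherins came next at 51.4 and 51.5 RPKM in wild-type and 58.7 and 53.0 RPKM in G85R, where both G85R sums were the higher ones. The 22 beta entries together gave 25.5 and 29.0 RPKM in wild-type and 22.4 and 21.996 RPKM in G85R, with no overlap between the genotypes. Delta2 protocadherins also did not overlap, at 30.0 and 26.1 RPKM in wild-type and 23.2 and 23.5 RPKM in G85R. The type I cadherins (15.0 and 14.2 RPKM in wild-type, 16.7 and 15.9 RPKM in G85R) and the other protocadherins (6.97 and 7.55 RPKM in wild-type, 7.97 and 7.93 RPKM in G85R) were higher in both G85R libraries, whereas the Pcdhgc5 entry and the other cadherins overlapped. The type I separation rested on Cdh15, at 0.0132 RPKM in G85R library 1 and 1.98 RPKM in G85R library 2. Without Cdh15 the type I sums would overlap. Summed over all 58 entries, the family stood at 302 and 315 RPKM in wild-type and 287 and 289 RPKM in G85R. An exact permutation test of such a sum, 2 libraries against 2, cannot give a two-sided p below 0.33, so these sums were described without a test.

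**Figure D2:**
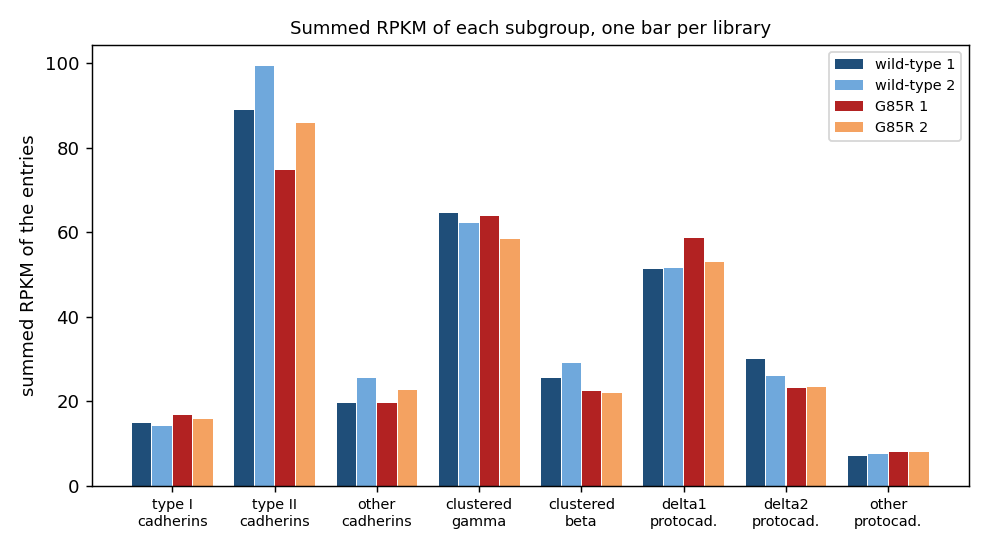
Summed RPKM of each subgroup, with 1 bar for each of the 4 libraries. Type II cadherins are the tallest group in every library (74.7 to 99.4 RPKM). The type II, beta and delta2 bars of both G85R libraries are below those of both wild-type libraries. The type I, delta1 and other protocadherin bars are above them, for type I only through Cdh15 in G85R library 2.

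Among type I classical cadherins, the motor neuron libraries held essentially Cdh2 alone. Cdh2, or N-cadherin, the main neuronal classical cadherin, was at 13.5 and 12.2 RPKM in wild-type and 15.4 and 13.0 RPKM in G85R. The ranges overlapped, and the log2 fold change (G85R minus wild-type, on log2 of RPKM + 0.1 here and below) was 0.14 with a standard error (SE) of 0.13 and a limma adjusted p of 0.797. Cdh4, or R-cadherin, was near 1 RPKM at 0.740, 1.08, 1.27 and 0.870 RPKM, in the order wild-type 1, wild-type 2, G85R 1 and G85R 2 that is used for every run of 4 values. Cdh1, the epithelial E-cadherin, was at 0 in all 4 libraries, which allows up to 0.0842 to 0.0980 RPKM if 3 reads are taken as the limit of a count of 0. Cdh3, or P-cadherin, had 0 reads in both wild-type libraries and 3 and 2 reads in the G85R libraries.

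Cdh15, the muscle cadherin M-cadherin, was the most uneven member. Its 0.686, 0.883, 0.0132 and 1.98 RPKM corresponded to 57, 78, 1 and 160 reads, and the 95% exact Poisson interval of the lowest count, 0.0253 to 5.57 reads, lay far below that of the highest, 136 to 187 reads. The lowest and the highest value thus came from the same genotype, and both wild-type libraries lay between them. Intervals of this kind cover counting error only. Cdh15 lies on chromosome 8 at 125371866 to 125391297 (NCBIM37, the genome build mm9), on the plus strand, where the annotation also has the protein-coding Gm20388 on the same strand. Its mean RPKM was below the minimum of 1 for testing.

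The type II cadherins, which mark neuron classes and motor pools, were led by Cdh22 and Cdh18. Cdh22, also known as PB-cadherin, was at 32.7 and 43.4 RPKM in wild-type and 24.4 and 34.1 RPKM in G85R. Its ranges overlapped, with G85R library 1 the lowest and wild-type library 2 the highest, and the replicates of each genotype differed widely (38.1 ± 7.52 and 29.3 ± 6.90 RPKM, SD, n = 2). The log2 fold change was -0.38 (SE 0.20, limma adjusted p = 0.544). Cdh22 is on the minus strand of chromosome 2 at 164937007 to 165060353, with the antisense transcript Gm14397 within it, and reads of the 2 strands cannot be told apart in these libraries.

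Cdh18 was steadier, at 19.6 and 20.1 RPKM in wild-type and 17.6 and 20.5 RPKM in G85R, with a log2 fold change of -0.06 (SE 0.12, limma adjusted p = 0.920). Next in level was Cdh10 at 8.13, 7.50, 7.95 and 7.05 RPKM (log2 fold change -0.06, limma adjusted p = 0.934). Both are neuronal type II cadherins, and neither separated the genotypes. Cdh18, Cdh10, Cdh12 and Cdh6 all lie on chromosome 15.

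The type II genes Cdh6, Cdh8, Cdh20 and Cdh11 were lower in both G85R libraries than in both wild-type libraries, with small differences. These 4 were singled out after their values had been seen. Among all tested entries, 23.9% were lower in G85R without overlap. Cdh6, a cadherin of motor pools and of the developing kidney, was at 5.59 and 6.13 RPKM in wild-type and 4.50 and 4.64 RPKM in G85R, a log2 fold change of -0.35 (SE 0.13), with an unadjusted p of 0.0348 and a limma adjusted p of 0.414. Cdh8, a neuronal cadherin of cold-sensing and other circuits, was at 3.61 and 3.99 RPKM in wild-type and 2.80 and 2.71 RPKM in G85R, a log2 fold change of -0.45 (SE 0.15) with an unadjusted p of 0.0223 and a limma adjusted p of 0.350. Cdh20, a motor pool cadherin, was at 6.23, 6.37, 5.36 and 5.16 RPKM (log2 fold change -0.26, limma adjusted p = 0.532). Cdh11, found on mesenchymal cells as well as neurons, was at 1.88, 1.45, 1.42 and 1.15 RPKM (log2 fold change -0.35, limma adjusted p = 0.679), and its inner values nearly met. None of these 4 differences passed the test after adjustment over all genes.

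Cdh24 was the type II gene that stood higher in both G85R libraries, at 2.48 and 2.60 RPKM in wild-type and 3.16 and 2.77 RPKM in G85R (log2 fold change 0.22, limma adjusted p = 0.717). Cdh12 at 3.29 to 4.46 RPKM and Cdh7 at 2.80 to 3.16 RPKM overlapped between genotypes. Cdh19, a cadherin of Schwann cells and glia, was at 0.638, 0.801, 0.822 and 0.566 RPKM. Cdh5, the vascular endothelial cadherin, was at 0.472, 0.691, 0.431 and 0.523 RPKM. Of the 8 endothelial and pericyte markers, Cldn5 was the highest at 4.24 to 6.81 RPKM, followed by Slco1c1 and Flt1. Pecam1, Pdgfrb, Tek, Kdr and Vwf were each under 1 RPKM in every library. Of the 10 tested type II genes, 9 had a log2 fold change below 0, where 54.7% of all tested entries did. The median of the 10 was -0.21, against a median of -0.02 over all 11530 tested entries.

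Cdh13 was the main cadherin outside the classical types. Cdh13, or T-cadherin, which is held to the membrane by a lipid anchor and has no cytoplasmic part to bind catenins, was at 18.9 and 24.1 RPKM in wild-type and 18.4 and 21.3 RPKM in G85R. The values overlapped (log2 fold change -0.11, SE 0.15, limma adjusted p = 0.884). Cdh23, known from the tip links of hair cells, was at 0.416, 0.992, 0.603 and 0.599 RPKM, and its wild-type libraries enclosed the G85R values. Cdh17, a cadherin of liver and intestine, was at 0.232, 0.427, 0.608 and 0.614 RPKM, both G85R values being the higher ones. It lies on chromosome 4 at 11685294 to 11745042, the chromosome on which the study places the transgene of the G85R strain, and any part of that position in the difference was not tested. Cdh26 was at 0.0249 to 0.0604 RPKM and Cdh16, the kidney cadherin, at 0 in all libraries, which allows 0.0343 to 0.0399 RPKM.

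The delta1 protocadherins carry a conserved cytoplasmic motif that binds a protein phosphatase. Pcdh9 was the most abundant entry of the family after Pcdhgc5, at 34.6 and 31.9 RPKM in wild-type and 42.1 and 37.5 RPKM in G85R. Both G85R values exceeded both wild-type values, and the log2 fold change of 0.26 (SE 0.11, limma adjusted p = 0.475) was the largest increase of a tested member. Pcdh1 went the other way, at 8.40 and 8.46 RPKM in wild-type and 7.56 and 6.55 RPKM in G85R, with no overlap and a log2 fold change of -0.26 (SE 0.13, limma adjusted p = 0.539). Pcdh7 was at 7.88 and 10.5 RPKM in wild-type and 8.70 and 8.54 RPKM in G85R, so that both G85R values lay inside the wild-type range (log2 fold change -0.07, limma adjusted p = 0.933). Pcdh11x, on the X chromosome, was low at 0.348 to 0.655 RPKM.

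Pcdh10 was the member with the clearest separation of the genotypes. This delta2 protocadherin, also called OL-protocadherin, recruits the WAVE complex through its cytoplasmic tail and is known for roles in axon outgrowth and activity-dependent removal of synapses. It was at 9.38 and 8.17 RPKM in wild-type and 5.17 and 4.88 RPKM in G85R, corresponding to about 1576, 1459, 793 and 796 reads. Both G85R libraries were well below both wild-type libraries, and the G85R mean was 0.573 of the wild-type mean. The log2 fold change was -0.79 (SE 0.13), with an unadjusted p of 0.000644 and a limma adjusted p of 0.0719. This adjusted p was the lowest of the family and above the 0.05 threshold. It moved with the processing, from 0.00566 with a replicate block to 0.405 with no minimum level. Pcdh10 lies on chromosome 3 at 45182320 to 45238488, on the plus strand, and no other annotated gene overlaps it.

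The sum of the meningeal and fibroblast markers was, like Pcdh10, lower in both G85R libraries, through Dcn, and that of the red blood cell markers was higher. Dcn, the proteoglycan decorin of fibroblasts, held most of the meningeal sum at 13.2 and 10.5 RPKM in wild-type and 2.95 and 5.19 RPKM in G85R, while the other 3 markers (Lum, Col1a1 and Col1a2) were each under 1 RPKM and overlapped. Motor neuron markers were also somewhat lower in G85R, summing to 1477 and 1764 RPKM in wild-type and 1273 and 1540 RPKM in G85R. The log2 fold change of 6 of the 7 was below 0, as for 54.7% of all tested entries, with none called. The endothelial and pericyte sum was also lower in both G85R libraries. The sums for astrocytes, microglia and other spinal neurons were higher in both. The part of any of these markers in the Pcdh10 difference was not tested.

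The other delta2 genes did not show the Pcdh10 pattern. Pcdh17, an adhesion molecule of axons and presynaptic terminals, was at 19.3 and 16.3 RPKM in wild-type and 16.3 and 17.4 RPKM in G85R (log2 fold change -0.07, SE 0.13, limma adjusted p = 0.914). Pcdh8, also called arcadlin and induced by neuronal activity, was at 0.664, 0.722, 1.02 and 0.493 RPKM, with both extremes in G85R. Pcdh19, the gene of an X-linked epilepsy, was at 0.387 to 0.601 RPKM and Pcdh18 at 0.275 to 0.321 RPKM.

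Of the remaining protocadherins, Pcdh21, known today as Cdhr1 and as a photoreceptor and olfactory bulb cadherin, was at 4.65 and 5.37 RPKM in wild-type and 5.83 and 5.96 RPKM in G85R. Its genotypes did not overlap (log2 fold change 0.23, SE 0.14, limma adjusted p = 0.620). Pcdh20 was at 1.202, 1.06, 1.32 and 1.06 RPKM (log2 fold change 0.06, limma adjusted p = 0.964). Pcdh15, the tip-link partner of Cdh23, was at 1.07 and 1.05 RPKM in wild-type and 0.760 and 0.875 RPKM in G85R, below the minimum mean for testing. Pcdh12, a vascular protocadherin, was near its detection limit at 0.0425 to 0.0681 RPKM.

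The clustered protocadherins on chromosome 18 appeared as 1 broad entry and a row of beta genes. The entry Pcdhgc5 joined 41 transcripts, and no separate entry existed for any alpha gene or for another gamma gene, so that its value is that of the joined transcripts and not of the single variable exon of that name. Its cluster number, 11223, comes before that of Pcdhb1, 11225, although the gene of that name starts at 37833989, beyond Pcdhb21 at 37673306. Whether alpha transcripts are among those joined was not determined, so the entry cannot be read as gamma RNA alone. It was the most abundant entry of the family, at 64.5 and 62.2 RPKM in wild-type and 63.8 and 58.4 RPKM in G85R, and it ranked at position 1298 of 27189 by mean level. It rested on 7805 to 9102 estimated reads per library, and the log2 fold change was -0.05 (SE 0.10, limma adjusted p = 0.925). The values overlapped, and this was among the smallest differences of the family.

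The beta genes are intronless in their coding part, each with its own promoter, and 10 of the 22 beta entries reached the minimum of 1 RPKM. The highest were Pcdhb20, at 2.66 and 3.17 RPKM in wild-type and 2.50 and 2.32 RPKM in G85R (log2 fold change -0.26, limma adjusted p = 0.679), and Pcdhb3, at 2.78 and 3.50 RPKM in wild-type and 1.85 and 2.36 RPKM in G85R (log2 fold change -0.56, SE 0.20, limma adjusted p = 0.387). Both were lower in both G85R libraries. Pcdhb7 shared this order at 2.50, 3.52, 2.11 and 2.12 RPKM (log2 fold change -0.47, SE 0.21, limma adjusted p = 0.478), although its wild-type libraries differed more from each other than its lower wild-type library did from G85R.

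Pcdhb6 and Pcdhb8 had the largest decreases of the tested members. Pcdhb6 was at 1.64 and 1.49 RPKM in wild-type and 0.759 and 0.745 RPKM in G85R, or 111, 107, 47 and 49 reads. Its mean of 1.16 RPKM reached the minimum of 1 only through wild-type, both G85R values being below 1. Its log2 fold change was -0.96 (SE 0.23), with an unadjusted p of 0.00419 and a limma adjusted p of 0.170. Pcdhb8 was at 1.80 and 2.53 RPKM in wild-type and 1.04 and 1.07 RPKM in G85R, or 123, 184, 65 and 71 reads. Its log2 fold change was -0.95 (SE 0.24), with an unadjusted p of 0.00496 and a limma adjusted p of 0.184. In each case the G85R libraries were close to each other and less than the lower wild-type library, and neither difference passed after adjustment.

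The other tested beta genes stood nearly level between the genotypes. Pcdhb9, next to Pcdhb8, was at 2.40, 2.27, 2.27 and 2.18 RPKM (log2 fold change -0.06, limma adjusted p = 0.945). Pcdhb17 was at 2.03, 2.16, 2.20 and 2.15 RPKM and Pcdhb5, next to Pcdhb6, at 0.959, 1.12, 1.24 and 1.04 RPKM, with log2 fold changes of 0.05 and 0.12. Pcdhb10 and Pcdhb14 had log2 fold changes of -0.11 and -0.04. Of the 12 beta entries under the minimum, 3 had both G85R values below both wild-type values and 1 had both above. The lower ones were Pcdhb21 at 0.391, 0.499, 0.207 and 0.247 RPKM, Pcdhb11 at 1.15, 0.801, 0.694 and 0.624 RPKM and Pcdhb2 at 0.604, 0.696, 0.567 and 0.407 RPKM. The higher one was Pcdhb16 at 0.435, 0.513, 0.519 and 0.602 RPKM, where the inner values nearly met. Among all tested entries, 23.9% were lower and 17.3% higher in G85R without overlap, and no such share was computed for entries under the minimum.

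**Figure D3:**
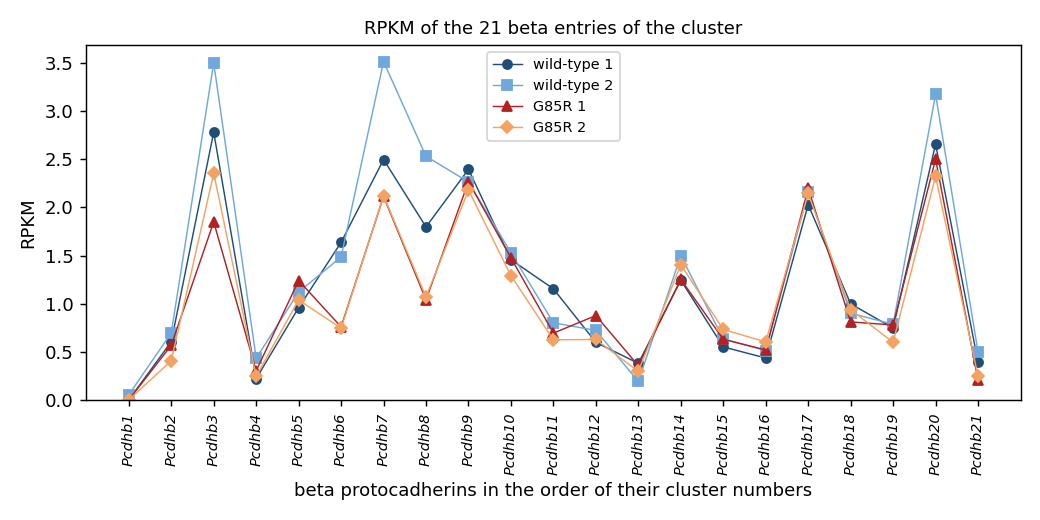
RPKM of the 21 beta entries of the cluster in the order of their numbers, with 1 line per library that only guides the eye. The 4 lines part at Pcdhb3 and from Pcdhb6 to Pcdhb8, where G85R is lower (0.745 to 0.759 against 1.49 to 1.64 RPKM at Pcdhb6), and lie close together at Pcdhb9 (2.18 to 2.40 RPKM) and Pcdhb17 (2.03 to 2.20 RPKM).

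When the 4 genes Pcdhb3, Pcdhb6, Pcdhb7 and Pcdhb8 were summed, the wild-type libraries held 8.72 and 11.0 RPKM and the G85R libraries 5.76 and 6.29 RPKM, a ratio of means of 0.610. The other 17 beta entries of the cluster gave 16.8 and 17.97 RPKM in wild-type and 16.7 and 15.7 RPKM in G85R, a ratio of 0.931. The 4 genes were picked after their values had been seen, and this split carries no test. Beta genes resemble each other, and how reads that match several of them were counted is not given in the sources used here. Of all 75-base windows of the Pcdhb8 gene on NCBIM37, 25.3% occurred with at most 2 mismatches in another of the 22 beta genes compared, most often in Pcdhb6, and 2.68% occurred there exactly. The share was 16.8% for Pcdhb6 (most often with Pcdhb8), 21.7% for Pcdhb7 (most often with Pcdhb9) and 4.12% for Pcdhb3, and over all 22 genes it ran from 0 to 25.3%. Windows shared exactly were fewer, at 4.02% for Pcdhb6, 2.53% for Pcdhb7 and 0.727% for Pcdhb3. Whether the division of reads between Pcdhb6 and Pcdhb8 was affected at these windows was not tested, and Pcdhb3 shares fewer of them.

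The last beta entries were very low. Pcdhb1 had 4 reads in wild-type library 2 and 0 in the other 3, and a further entry named Pcdhb11, away from the cluster in the numbering of the table, was at 0 throughout, which allows 0.0991 to 0.115 RPKM.

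Across the family, no member passed the test between genotypes. Of the 58 entries, 30 reached a mean of 1 RPKM over the 4 libraries and were tested, and 0 of them had a limma adjusted p under 0.05, where 0.642% of all tested entries did (0.373% lower and 0.269% higher in G85R). At an adjusted p under 0.1 there was 1 member, Pcdh10, and 1.23% of all tested entries. The 28 entries not tested had means of at most 0.988 RPKM, and 21 of them were at 0.1 RPKM or more. Pcdhb6 was tested only through its wild-type level, both of its G85R values being below 1 RPKM. At an unadjusted p under 0.05 there were 6 members, all lower in G85R (Pcdh10, Pcdhb6, Pcdhb8, Cdh8, Pcdhb3 and Cdh6), which is 20.0% of those tested, where 11.0% of all tested entries passed that threshold (6.37% lower and 4.66% higher in G85R). The log-linear likelihood ratio test, the kind of test the study used, gave no member a raw p under 0.05, where 1.29% of all 27189 entries had one and 0.228% an adjusted p under 0.05. It was run on rounded RPKM and not on reads, so members near 1 RPKM had little room to reach that threshold. Even Pcdh10 had a raw p of 0.175 in that test, which therefore says little about the low members.

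The direction of the differences leaned to lower values in G85R. Of the 30 tested members, 23 (76.7%) had a log2 fold change below 0, against 54.7% of all tested entries. The libraries of the genotypes did not overlap for 14 members, 11 of them lower in G85R (36.7%) and 3 higher (10.0%), where 41.2% of all tested entries did not overlap (23.9% lower and 17.3% higher). The higher ones were Pcdh9, Pcdh21 and Cdh24. The median log2 fold change of the tested members was -0.09. It was -0.21 for type II cadherins, -0.18 for beta protocadherins, of which 8 of 10 were below 0, and 0.15 for the 2 tested protocadherins outside all classes. Among the 28 untested members, 6 were lower and 3 higher without overlap, and the share over all untested entries was not computed. These shares were not tested as a list, and the lower tested members include Pcdhb6, which reached the minimum only through wild-type.

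**Figure D4:**
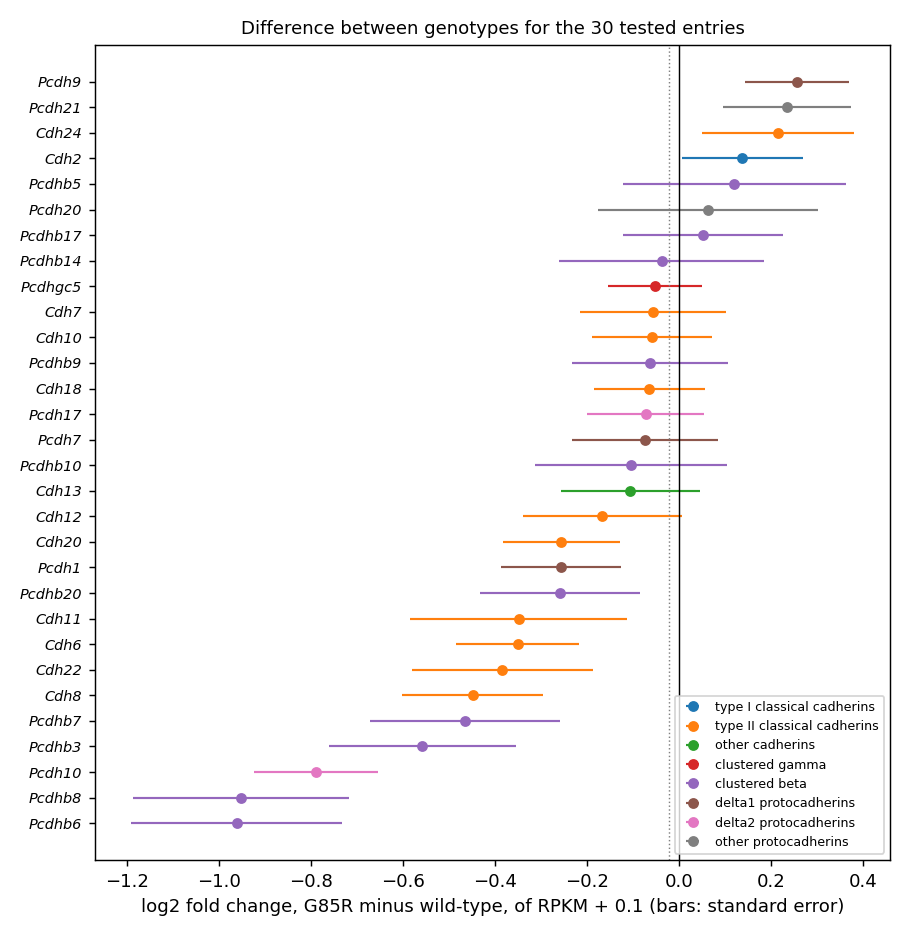
Log2 fold changes (G85R minus wild-type) of the 30 tested entries, ordered by size, with bars of 1 standard error, a solid line at 0 and a dotted line at the median of all tested entries (-0.02). Pcdhb6, Pcdhb8 and Pcdh10 lie farthest to the left at -0.96, -0.95 and -0.79, and Pcdh9 farthest to the right at 0.26.

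The catenins and adaptors that cadherins work with were well expressed and showed no called difference. Of 15 entries for 14 such genes, 14 were tested and 0 were called by limma. Ctnnb1, or beta-catenin, which binds the cadherin tail, was at 104 and 92.2 RPKM in wild-type and 97.4 and 98.7 RPKM in G85R. Ctnna2, the neuronal alpha-catenin that links the complex to actin, was at 35.2 to 39.6 RPKM, above Ctnna1 at 12.1 to 15.3 RPKM. Ctnnd2, the neuronal delta-catenin, was at 22.5 and 21.1 RPKM in wild-type and 25.9 and 23.3 RPKM in G85R, the only entry of this list with both G85R values the higher ones. Arvcf, a related catenin of the cadherin tail, was at 10.7 and 12.8 RPKM in wild-type and 8.37 and 9.53 RPKM in G85R (log2 fold change -0.39, limma adjusted p = 0.388). It was the only one of the 14 with an unadjusted p under 0.05, where 11.0% of all tested entries had one. Of the 14, 7 were lower in G85R without overlap (where 23.9% of all tested entries were), both entries of Mllt4 among them. The inner values nearly met for Pvrl2 (3.654 RPKM in wild-type, 3.649 RPKM in G85R) and for 1 Mllt4 entry (3.152 and 3.108 RPKM). The median log2 fold change of the 14 was -0.11.

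Partners of the protocadherins were closer to level. The 11 genes of protocadherin signalling and the WAVE complex had a median log2 fold change of -0.02 and 0 calls by limma. An unadjusted p under 0.05 was reached by 0 of them, where 11.0% of all tested entries had one. Its main subunits Nckap1 and Cyfip2 were at 92.3 to 103 RPKM and 97.2 to 111 RPKM, with both G85R values the lower ones in each case. The 6 tested proteases that cut cadherins, among them Adam10 at 9.40 to 10.6 RPKM, had a median of -0.02 and 0 calls. The 10 tested regulators of the protocadherin clusters had a median of -0.01 and 0 calls. Of these, Ctcf, the looping factor that sits at the promoters of the clusters, was at 9.90 and 8.68 RPKM in wild-type and 8.33 and 7.07 RPKM in G85R (log2 fold change -0.27, limma adjusted p = 0.556), and Smchd1, which silences clustered protocadherins, was at 4.97 to 7.71 RPKM.

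**Figure D5:**
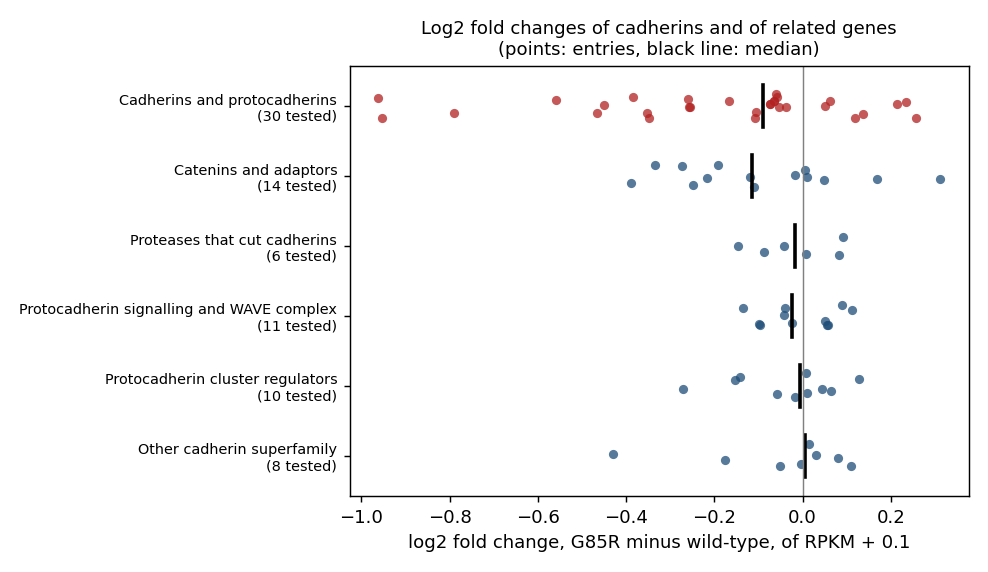
Log2 fold changes (G85R minus wild-type) of the tested entries of the family and of 5 lists of related genes, with 1 point per entry and a black line at the median. The family reaches -0.96 at its lower end, at Pcdhb6, which met the minimum of 1 RPKM only through wild-type. No tested related entry is below -0.43, and the medians lie between -0.11 and 0.01.

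Other branches of the cadherin superfamily held more RNA than the members themselves. The calsyntenins, membrane proteins of the synapse and of axonal transport with cadherin repeats, were abundant, with Clstn1 at 240 and 270 RPKM in wild-type and 283 and 267 RPKM in G85R and Clstn3 at 152 to 173 RPKM. Ret, the receptor for glial cell line-derived neurotrophic factor with cadherin-like repeats, was at 107 and 122 RPKM in wild-type and 81.4 and 87.9 RPKM in G85R. It was lower in both G85R libraries (log2 fold change -0.43, SE 0.11, limma adjusted p = 0.198), and it is also 1 of the 7 motor neuron markers. Of the seven-pass cadherins, Celsr2 was at 17.8 to 23.7 RPKM and Celsr3 at 4.54 to 4.87 RPKM. The desmosomal Dsc and Dsg genes were at 0.0710 RPKM or less. Of the 16 entries of this list, 8 were tested and 0 were called, with a median log2 fold change of 0.01. Among the 8, 1 (Ret) had an unadjusted p under 0.05, where 11.0% of all tested entries had one.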

How the data were processed

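The values were RPKM for 27189 UCSC gene clusters in each of 4 libraries. The authors mapped the reads with Bowtie 0.12.3 to mm9 and a splice junction database, quantified RPKM with Cufflinks for each library separately, and deposited beside it the RPKM after 1 read had been added to each gene. The difference between both values is the RPKM of 1 read and gave the estimated reads behind an entry (whole within 0.05 for 93.75% of the values of entries with 1 transcript, for which Cufflinks divides no reads between isoforms). For the 26 entries with several transcripts, among them Pcdhgc5, Pcdh10 and Cdh17, 23.1% of the values were whole. Their reads are approximate. Raw reads were not used here.

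The difference between genotypes was fitted in R 4.3.3 with the lmFit and trended eBayes functions of limma 3.58.1, on log2(RPKM + 0.1) over the 11530 entries with a mean of at least 1 RPKM, with Benjamini-Hochberg adjustment over all of them, a threshold of 0.05 and no block. A pseudocount makes the fold changes of low genes smaller. The log-linear likelihood ratio test was run on the rounded RPKM with 1 read added, over all entries. Each library is 1 animal, and p-values rest on 2 animals per genotype. The RPKM minimum was applied to the mean over both genotypes. Libraries of the same number were not treated as pairs, since no source says what they share. Described individually were the 3 most abundant members of each subgroup, the 5 largest differences in each direction, and the tested members that did not overlap, with further members added to account for every entry. The members and lists were chosen with earlier results of these data known. Positions came from the NCBIM37 annotation by symbol, for 56 entries. The libraries carry no strand information that was used here, so antisense genes cannot be told apart. The test was tested on simulated data. Alternatives were other pseudocounts (1 and 0.01), the RPKM with 1 read added, median-ratio and quantile scaling, other minimum levels (0.1, 5 or none), an eBayes step with no trend and a robust one, a replicate block, an adjusted p under 0.1, and leaving out each library. Other values came from Python 3.11.15 with numpy 2.4.6, pandas 2.3.3 and scipy 1.17.1.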

Additional observations from a re-analysis of the deposited data

How the results depend on the processing

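No cadherin or protocadherin was called by limma under the alternatives, apart from the replicate block, where 3 were (Pcdh10 at an adjusted p of 0.00566, Cdh22 at 0.0389 and Pcdhb8 at 0.0438, with 4.57% of all entries called), and the adjusted p under 0.1, where 1 was (Pcdh10). The deviations of same-numbered libraries correlated at 0.22, but with 2 pairs the numbers do not show a pairing. The count of all entries called, 74, moved to 40 with quantile scaling, 17 with a minimum of 5 RPKM, 112 with no minimum, 49 without trend, 527 with the replicate block and 142 at an adjusted p under 0.1, and to between 78 and 188 when 1 library was left out (188 without G85R library 2), the remaining library being taken to vary like the other genotype. The cause was not tested. Of the 30 tested members, 21 kept their direction under every alternative that gave them a value, 15 of them lower and 6 higher. The other 9 turned when 1 library was left out, with log2 fold changes of -0.116 to 0.0103 for Pcdhgc5, -0.282 to 0.0683 for Cdh13, -0.173 to 0.0435 for Cdh18, -0.193 to 0.0475 for Pcdh17, -0.276 to 0.128 for Pcdh7, -0.145 to 0.0258 for Cdh10, -0.131 to 0.0164 for Cdh7, -0.164 to 0.0866 for Pcdhb14 and -0.0824 to 0.206 for Pcdh20, and Pcdhb14 also with quantile scaling (0.0236). For Pcdh10 the log2 fold change ran from -0.89 to -0.69 over all alternatives. Its limma adjusted p was 0.104 with quantile scaling, 0.113 with a minimum of 5 RPKM, 0.110 without trend and 0.405 with no minimum. The robust step gave 0.0512. Other pseudocounts, 1 read added, median-ratio scaling and a minimum of 0.1 RPKM gave 0.0716 to 0.0797. The family's median of -0.09 was -0.0690 with a pseudocount of 1, -0.0620 with the median ratio, -0.0651 with quantile scaling and -0.0735 with a minimum of 5 RPKM, and -0.15 to -0.10 when 1 library was left out. In that case the type II median ran from -0.22 to -0.13 and the delta1 median from -0.26 to 0.13. The median of the other protocadherins was 0.23 with a minimum of 5 RPKM, which leaves 1 of them. A tested member rested on as few as 47 reads in a library, and each genotype on 2 animals.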

Other observations

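The untested members held a few contrasts between genotypes that lie below the minimum level. Pcdh11x was at 0.449 and 0.655 RPKM in wild-type and 0.348 and 0.402 RPKM in G85R, and Cdh26 at 0.0604 and 0.0454 RPKM in wild-type and 0.0264 and 0.0249 RPKM in G85R, the latter on 2 reads per G85R library. Cdh17 rested on about 22.6, 44.1, 53.9 and 57.9 reads and Pcdhb21 on 31, 42, 15 and 19 reads. In each of these 4 entries the genotypes did not overlap, and no test was run on them. How often this occurs among all untested entries was not computed.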
